A study of Mus musculus with 11 samples.

Results

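In mouse embryonic fibroblasts that lack SA1, 6220 narrow positions carried peaks of both cohesin ring subunits SMC3 and SMC1 and had no peak of any of 4 cohesin subunits in wild-type fibroblasts. They are called narrow new ring peaks here. They were chosen by their peaks: an SMC3 interval of SA1-null cells below 1000 bp in width that overlapped an SMC1 interval of the same cells by at least 1 bp and overlapped no wild-type interval of SA1, SA2, SMC1 or SMC3. They made up 17.9% of the 34802 SMC3 peaks of SA1-null cells. The presence of SMC3 and SMC1 in SA1-null cells and their absence from the wild-type lists are therefore what defines the set, and are not findings about it. "New" means that no wild-type peak was called, not that cohesin was absent.

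The study mapped cohesin by chromatin immunoprecipitation and sequencing (ChIP-seq) in SA1-null and in wild-type fibroblasts, both untreated, taken from embryos of a C57BL/6 x 129 Sv background at embryonic day 12.5. SMC3, SMC1, SA2 and SA1 were precipitated from SA1-null cells and from wild-type cells, with 1 library each except for SMC1 of SA1-null cells, whose 2 libraries were deposited as 1 combined list. The 2 input libraries each pool both genotypes. The SA1-null cells still make SA2, and the labels do not say how many embryos or cultures stand behind a library.

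Cohesin is a ring made of SMC1, SMC3 and a kleisin subunit that encircles chromatin. A further subunit, SA1 or SA2 (also named STAG1 and STAG2), binds the kleisin, and each ring carries either one or the other. Rings are loaded by NIPBL, move along the fibre as they form loops, and in mammalian cells are often found where the DNA-binding protein CTCF is bound. SMC1 and SMC3 thus report any ring, whereas SA1 and SA2 report which kind of ring it is.

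The SA1 list of SA1-null cells held 177 intervals, against 26602 in wild-type cells. The other lists held, in SA1-null and wild-type cells, 34802 and 15564 SMC3 peaks, 47003 and 24000 SMC1 peaks, and 6352 and 7741 SA2 peaks. The lists give a chromosome, a start and an end only, so peak height and sequencing depth are unknown. A longer list in SA1-null cells gives more positions without a wild-type peak whatever the cause, and the part of depth in the results below was not tested. With 1 list per group there was no replicate spread, and no test between genotypes or between sets of peaks was made. Intervals printed after shares are 95% exact Clopper-Pearson intervals, those after medians are exact binomial order-statistic intervals, and those after densities are exact Poisson intervals. Where a count is 0, the share it is said to allow is 3 counts of the total, which lies somewhat below the upper end of the exact interval. All of these cover counting error only, and peaks are not replicates of a condition.

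The narrow new ring peaks were somewhat narrower than the SMC3 list of SA1-null cells as a whole, whose median was 652 bp. Part of this is set by the rule, which leaves out widths of 1000 bp or more. Their SMC3 intervals were 237 to 999 bp wide, with a median of 608 bp and quartiles of 510 and 709 bp. Narrow ring peaks of SA1-null cells that did have a wild-type peak, 22428 in number, had a median of 666 bp and quartiles of 571 and 749 bp. Among ring peaks of SA1-null cells of any width, 21.9% had no wild-type peak. Among narrow ones this share did not run in one direction with width. It was 32.4% below 400 bp and 34.2% from 400 to 499 bp, stood lowest at 13.1% from 700 to 799 bp, and was 29.8% from 900 to 999 bp. Both the narrowest and the widest narrow peaks thus included a larger share without a wild-type peak than those near 750 bp.

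**Figure D1:**
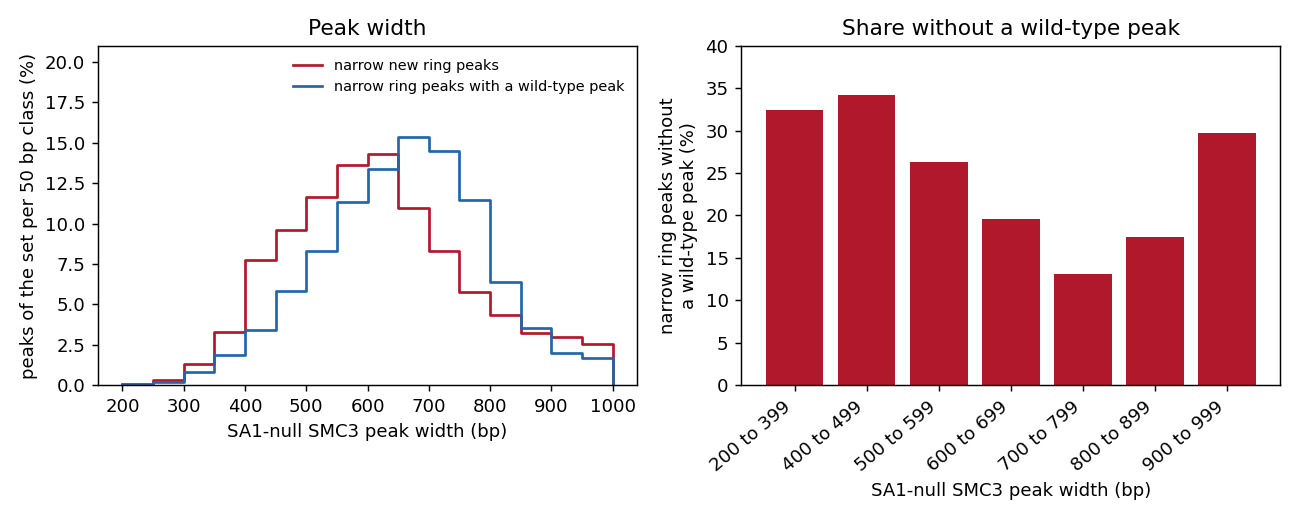
Left, the width of SMC3 peaks of SA1-null cells (bp, classes of 50 bp) for narrow new ring peaks (red) and narrow ring peaks with a wild-type peak (blue), as a percentage of each set. Right, the percentage of narrow ring peaks that had no wild-type peak in each width class, lowest at 13.1% from 700 to 799 bp.

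The width limit of the rule fell in the thin upper tail of the distribution. The widest narrow new ring peaks measured 999 bp (chromosome 16, 21338960 to 21339958), 998 bp (chromosome 19, 18964480 to 18965477) and 998 bp (chromosome 9, 16087142 to 16088139). Just beyond the limit were new ring peaks of 1000 bp (chromosome 1, 154976907 to 154977906), 1000 bp (chromosome 5, 31938906 to 31939905) and 1002 bp (chromosome 9, 13962016 to 13963017). All positions here are 1-based on mm9. Only 342 narrow new ring peaks (5.50%) were 900 bp or wider, and 532 broad ones lay above the limit.

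Within the overlap that the rule requires, SMC3 and SMC1 lay closely over each other at these positions. That requirement limits how far apart their centres can be, and the ring peaks compared below met it too. One SMC1 peak was present at 6134 of the 6220 positions and 2 at the other 86. The centre of the SMC1 peak was a median of 58 bp (interval 56 to 60) from the centre of the SMC3 peak, and at 72.7% of positions it was within 100 bp. At narrow ring peaks with a wild-type peak this distance was 42.5 bp (interval 41.5 to 43), and at broad new ring peaks, which leave more room for an offset, it was 132 bp. The SMC1 peak covered a median of 83.0% of the SMC3 peak, against 83.7% at narrow ring peaks with a wild-type peak. The partners differed little in width: the SMC1 peak had a median of 546 bp (interval 542 to 552) at narrow new ring peaks and 573 bp (interval 570 to 575) at those with a wild-type peak.

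In a few cases the SMC1 partner reached beyond the SMC3 interval into wild-type territory. This was so at 62 narrow new ring peaks (0.997%), where the SMC1 partner itself overlapped a wild-type interval. Of the 5 narrow new ring peaks with the widest partners, 3 were of this kind. The widest, 2309 bp, ran from 43362834 to 43365142 on chromosome 16 and held a 595 bp SMC3 peak that lay 465 bp from the nearest wild-type peak, one of SMC1. The next, 2125 bp on chromosome 10 (96083277 to 96085401), covered 54.9% of a 981 bp SMC3 peak. The partner of 2081 bp on chromosome 9 (41395812 to 41397892) covered its 911 bp SMC3 peak entirely. The remaining pair of the 5 shared one SMC1 partner of 1930 bp on chromosome 11 (8562349 to 8564278), over SMC3 peaks of 552 and 638 bp. In all, 29 SMC1 peaks were shared by 2 narrow new ring peaks and none by more.

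SA2, the SA subunit that SA1-null cells keep, was hardly ever called at narrow new ring peaks. The SA2 list of SA1-null cells was not used to choose them, but the rule removed positions with a wild-type SA1 or SA2 peak. Wild-type intervals, joined where they touch or overlap, gave 35923 positions, of which 5836 carried one of the 6352 peaks of that SA2 list. Removing wild-type positions thus lowers the SA2 share by construction. An SA2 peak of SA1-null cells overlapped 6 of the 6220 positions (0.0965%, interval 0.0354 to 0.210%), against 5072 of the 22428 narrow ring peaks with a wild-type peak (22.6%, interval 22.1 to 23.2%) and 15.8% of all SMC3 peaks of SA1-null cells. Broad new ring peaks had none among 532, which allows a share of up to 0.564%, and narrow new SMC3 peaks without SMC1 had none among 2904, which allows up to 0.103%. The SA2 list of SA1-null cells is shorter than their SMC3 and SMC1 lists, and it was called against another input. SA2 below the calling threshold at these positions cannot be told apart from rings that lack it.

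The low SA2 share, which the rule lowers by construction as said above, was present in every class of width. The classes divide only 6 positions with SA2 and share this limit, so they do not add separate support. From 400 to 499 bp, 3 of 1080 narrow new ring peaks (0.278%) had an SA2 peak, against 11.1% of those with a wild-type peak. From 500 to 599 bp it was 2 of 1572 (0.127%), against 14.7%, and from 600 to 699 bp it was 1 of 1573 (0.0636%), against 19.7%. No narrow new ring peak from 700 to 799 bp had one, 0 of 876, which allows a share of up to 0.342%, against 29.7% of those with a wild-type peak. The share among peaks with a wild-type peak was highest, 40.6%, from 800 to 899 bp, where 0 of 468 narrow new ring peaks had an SA2 peak, which allows up to 0.641%. The narrowest class, below 400 bp, and the widest, from 900 to 999 bp, held 0 of 309 and 0 of 342 narrow new ring peaks with SA2, against 7.29% and 30.5% of those with a wild-type peak.

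**Figure D2:**
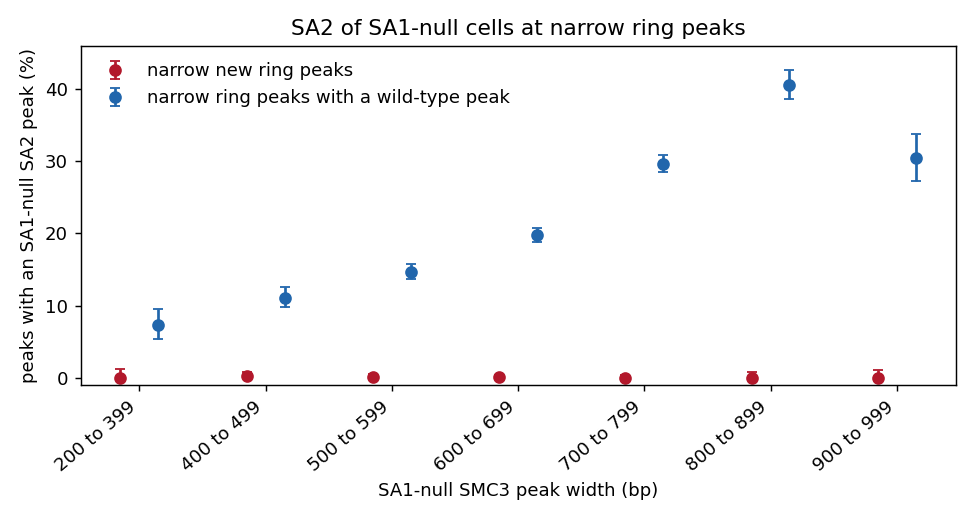
The percentage of narrow ring peaks of SA1-null cells that overlap an SA2 peak of the same cells, by SMC3 peak width (bp). Narrow new ring peaks (red) lie between 0 and 0.278% in every class, and narrow ring peaks with a wild-type peak (blue) between 7.29 and 40.6%. Bars are 95% exact Clopper-Pearson intervals. The rule left out positions with a wild-type SA1 or SA2 peak, which lowers the red values by construction.

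A low SA2 share was not confined to positions without a wild-type peak. Narrow ring peaks that had a wild-type peak but neither a wild-type SA1 nor a wild-type SA2 peak, which are wild-type SMC1 or SMC3 positions, had SA2 in SA1-null cells at 27 of 4136 (0.653%, interval 0.431 to 0.948%). Those with a wild-type SA1 peak had it at 5025 of 18193 (27.6%, interval 27.0 to 28.3%). The narrow new ring peaks, which by their definition have no wild-type SA1 or SA2 peak, stood at 0.0965%, below both. When only the wild-type SMC1 and SMC3 lists were used for exclusion, so that positions with wild-type SA1 or SA2 could enter, the set grew to 8547 and the SA2 share was 1.91%.

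The 5 exceptions with the widest SA2 peaks differed in how far the 3 subunits overlapped. The widest SA2 peak at a narrow new ring peak, 439 bp, lay on chromosome 8 within an SMC3 peak from 129310017 to 129310521 and began at the same base as its SMC1 peak, 129310080. On chromosome 6 an SA2 peak of 428 bp (84495580 to 84496007) overlapped the SMC3 peak from 84495294 to 84495970 and ran past its end, and on chromosome 14 one of 396 bp overlapped that from 41604898 to 41605397. On chromosome 1 an SA2 peak of 361 bp (133897070 to 133897430) ran past the end of an SMC3 peak from 133896956 to 133897412. The fifth by width, 320 bp on chromosome 16 (60538107 to 60538426), lay within an SMC3 peak from 60537982 to 60538468. That SMC3 peak was 854312 bp from the nearest wild-type peak, farther than any other narrow new ring peak.

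Background intervals were rare at narrow new ring peaks, as they were at SMC3 peaks of SA1-null cells in general. One of the 6220 (0.0161%, interval 0.000407 to 0.0895%) overlapped an input interval, on chromosome 15 from 61419808 to 61420442. None overlapped an SA1 interval of SA1-null cells, which allows a share of up to 0.0482%. Of all SMC3 peaks of SA1-null cells, 0.0603% overlapped one of these 3 lists. The 3 lists hold 436, 417 and 177 intervals, too few to contain more than a small part of the narrow new ring peaks. By its name, the SMC3 list was also called against the second input, which by itself works against overlap with input intervals. The low share is therefore no measure of how sound these peaks are.

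The rule leaves out any overlap with a wild-type cohesin peak, and within that limit most narrow new ring peaks lay more than 1000 bp from one. The median distance to the nearest wild-type peak, edge to edge, was 13386.5 bp (interval 12840 to 13986), with quartiles of 4337 and 31533 bp. It was 13719.5 bp (interval 11889 to 16138) for broad new ring peaks and 14665 bp (interval 13626 to 15647) for narrow new SMC3 peaks without SMC1. A wild-type peak lay within 1000 bp of 480 narrow new ring peaks (7.72%), within 10000 bp of 2630 (42.3%, interval 41.1 to 43.5%) and within 100000 bp of 6007 (96.6%). For comparison, 83.8% of all SMC3 peaks of SA1-null cells were within 10000 bp, a share that contains those overlapping a wild-type peak. By subunit, the nearest wild-type SMC1 peak was a median of 18869.5 bp away, the nearest SA1 peak 22811.5 bp, the nearest SMC3 peak 32770.5 bp and the nearest SA2 peak 72632.5 bp. The wild-type lists differ in length, which bears on these distances.

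Per length of sequence, narrow new ring peaks became sparser with distance from wild-type peaks. Distances for this count run from the centre of the peak, and the sequence counted lies between the first and the last interval of all lists on each chromosome. Sequence 1 to 2 kb from a wild-type peak held 6.31 narrow new ring peaks per Mb (interval 5.70 to 6.95), that at 10 to 20 kb held 3.28 (interval 3.10 to 3.47), that at 50 to 100 kb held 1.53 (interval 1.41 to 1.66) and that at 200 to 500 kb held 0.175 (interval 0.125 to 0.239). In the first kilobase the density was 5.32 per Mb, where the rule itself keeps centres out of the bases next to a wild-type peak. The other new peaks fell off over the same distances: narrow new SMC3 peaks without SMC1 stood at 2.98 per Mb at 1 to 2 kb and at 0.127 at 200 to 500 kb. Broad new ring peaks stood at 0.565 per Mb at 1 to 2 kb, and none of the 532 lay beyond 200 kb. Unsequenced and repetitive stretches, where no peak can be called, are not marked in the lists and their part in this decline was not tested.

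With distance from SA2 peaks of SA1-null cells the density did not decline steadily. It was 5.14 per Mb (interval 3.96 to 6.56) at 1 to 2 kb from such a peak, 3.14 (interval 2.82 to 3.49) at 10 to 20 kb, 3.89 (interval 3.70 to 4.09) at 50 to 100 kb and 1.72 at 200 to 500 kb. The SA2 list of SA1-null cells is shorter than the 4 wild-type lists together, so its peaks are also farther from any point.

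**Figure D3:**
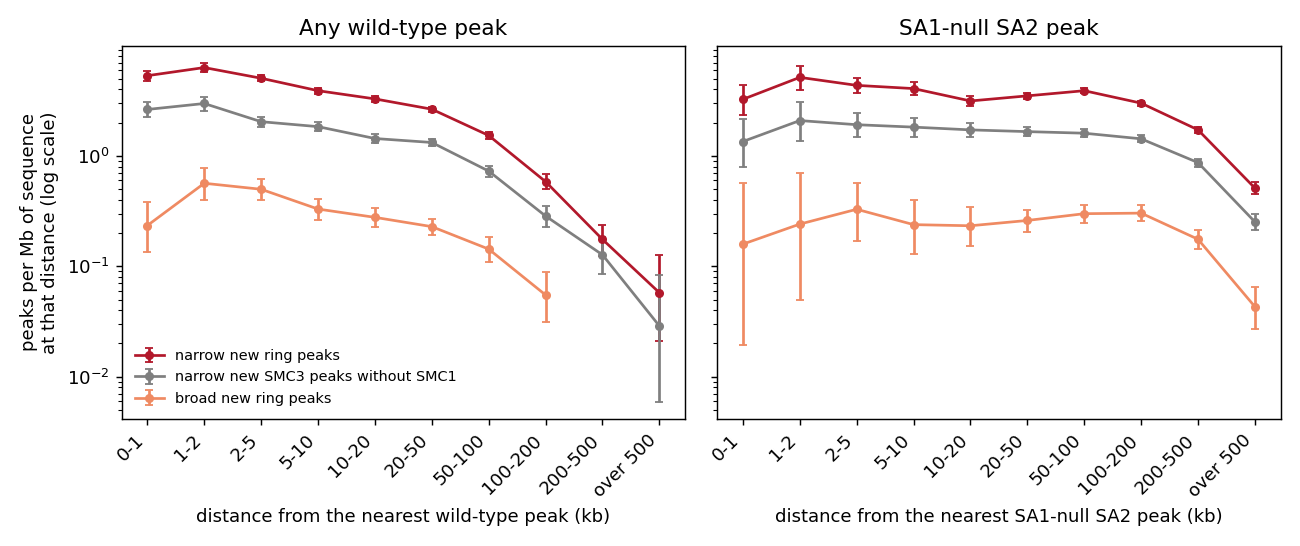
New peaks of SA1-null cells per Mb of sequence (log scale) against distance from the nearest wild-type peak of any subunit (left, kb) and from the nearest SA2 peak of SA1-null cells (right, kb), with 95% exact Poisson intervals; classes without a peak are not drawn. Narrow new ring peaks (red) are at 6.31 per Mb at 1 to 2 kb from a wild-type peak and at 0.175 at 200 to 500 kb, and at 5.14 and 1.72 at the same distances from an SA2 peak.

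Widths and the share with SMC1 differed little between peaks near to and far from wild-type cohesin. The median SMC3 width was 614 bp (interval 595 to 626) for the 480 within 1000 bp of a wild-type peak and 599 bp (interval 579 to 619) for the 213 more than 100000 bp away. The median SMC1 partner width was 574.5 bp (interval 555 to 600) in the near group and 537 bp (interval 518 to 583) in the far one. Of narrow SMC3 peaks that were new, the share accompanied by SMC1 was 66.5% (interval 62.9 to 69.9%) within 1000 bp and 65.1% (interval 59.7 to 70.3%) beyond 100000 bp. These intervals overlap for all 3 measures. In between, the 2150 peaks more than 1000 and up to 10000 bp away had a median partner width of 537 bp (interval 530 to 546), below that of the near group.

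The extremes of distance show both situations. The nearest was 3 bp from a wild-type SA1 peak, at 128253856 to 128254603 on chromosome 2. The next were 5 bp from a wild-type SMC1 peak on chromosome 3 (151755255 to 151755769), 5 bp from a wild-type SMC3 peak on chromosome 15 (76982223 to 76982643), 9 bp from SMC1 on chromosome 7 (118300770 to 118301593) and 10 bp from SMC1 on chromosome 17 (84509196 to 84509643). Such neighbours are adjoining intervals. At those on chromosomes 2, 15 and 17 the SMC1 partner itself overlapped a wild-type interval, so they are new by the SMC3 interval only. After the position on chromosome 16 given above, the farthest were 848245 bp (chromosome 12, 108201840 to 108202490), 834082 bp (chromosome 12, 108128596 to 108129044), 720780 bp (chromosome 1, 3601209 to 3601775) and 696411 bp (chromosome 12, 22020975 to 22021225) from any wild-type peak. That on chromosome 1 lies ahead of every wild-type peak of its chromosome.

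In the features compared here, the wild-type position nearest to a narrow new ring peak differed by only some percentage points from wild-type positions in general. For this, touching or overlapping wild-type intervals were joined into 35923 positions. At 4514 of the 6220 narrow new ring peaks (72.6%, interval 71.4 to 73.7%) the nearest of these carried both SMC1 and SMC3 in SA1-null cells, against 67.4% (interval 67.0 to 67.9%) of all wild-type positions. For broad new ring peaks this share was 70.9% (interval 66.8 to 74.7%) and for narrow new SMC3 peaks without SMC1 it was 71.4% (interval 69.7 to 73.1%). It carried an SA2 peak of SA1-null cells in 14.2% (interval 13.3 to 15.1%), against 16.2% (interval 15.9 to 16.6%) of all wild-type positions. Wild-type SA1, SMC1 and SMC3 were all present at it in 33.2% (interval 32.1 to 34.4%), against 35.7% (interval 35.3 to 36.2%). Taken singly, wild-type SMC1 was present at it in 71.9%, SA1 in 64.0%, SMC3 in 42.4% and SA2 in 19.9%. The single shares were not computed for all wild-type positions.

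Narrow new ring peaks were mostly single, with some short runs. Another narrow new ring peak lay within 10000 bp of 1175 of them (18.9%, interval 17.9 to 19.9%). Narrow ring peaks with a wild-type peak had one of their own kind that near in 34.5% of cases and broad new ring peaks in 4.89%, an order that the sizes of the sets, 22428 and 532, also set. The nearest other SMC3 peak was itself a narrow new ring peak for 25.6% of members, while narrow new ring peaks were 17.9% of all SMC3 peaks. It had a wild-type peak for 61.4%, while 72.1% of all SMC3 peaks had one.

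Joined across gaps of up to 10000 bp, they formed 5045 singles, 469 pairs, 61 runs of 3, 11 runs of 4 and 2 runs of 5. One run of 5 spanned 21128 bp on chromosome 3 (58113494 to 58134621), with SMC3 peaks of 571, 941, 738, 708 and 630 bp. The other spanned 10552 bp on chromosome 7 (80724147 to 80734698), with peaks of 497, 580, 572, 882 and 614 bp. Of the 35903 stretches between neighbouring wild-type positions, 4657 held at least 1 narrow new ring peak. These stretches were longer, with a median of 64520 bp against 30881 bp for all stretches, and 3568 of them held exactly 1. A longer stretch has more room for any peak, so some difference in this direction follows from length alone. The stretch with most, 8, was 97277 bp long on chromosome 4 (134776402 to 134873678).

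At the scale of 1 Mb, narrow new ring peaks followed the density of cohesin. They were present in 1668 of 2584 windows, with a median of 1 and a maximum of 19 per window. Their number per window ranked with that of narrow ring peaks with a wild-type peak (Spearman's rho 0.73 over 2584 windows) and of wild-type SA1 peaks (0.71), as a description of windows that share libraries and unsequenced stretches. Of the 6220, 17 (0.273%) lay in the 172 windows without a wild-type SA1 peak. These windows held 30 of all SMC3 peaks of SA1-null cells (0.0862%), a smaller share than that of the narrow new ring peaks. Of the 172 windows, 153 held no SMC3 peak of SA1-null cells.

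The window with most, 19, ran from 119000001 to 120000000 on chromosome 7. It also held 18 narrow ring peaks with a wild-type peak, 8 SA2 peaks of SA1-null cells and 23 SA1 peaks of wild-type cells. The next windows were chromosome 4 from 134000001 to 135000000 with 18, chromosome 8 from 113000001 to 114000000 with 17, chromosome 13 from 63000001 to 64000000 with 17 and chromosome 2 from 52000001 to 53000000 with 16. In the window on chromosome 13 the narrow new ring peaks outnumbered the 9 narrow ring peaks with a wild-type peak, and in that on chromosome 2 the order was the other way, with 19.

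**Figure D4:**
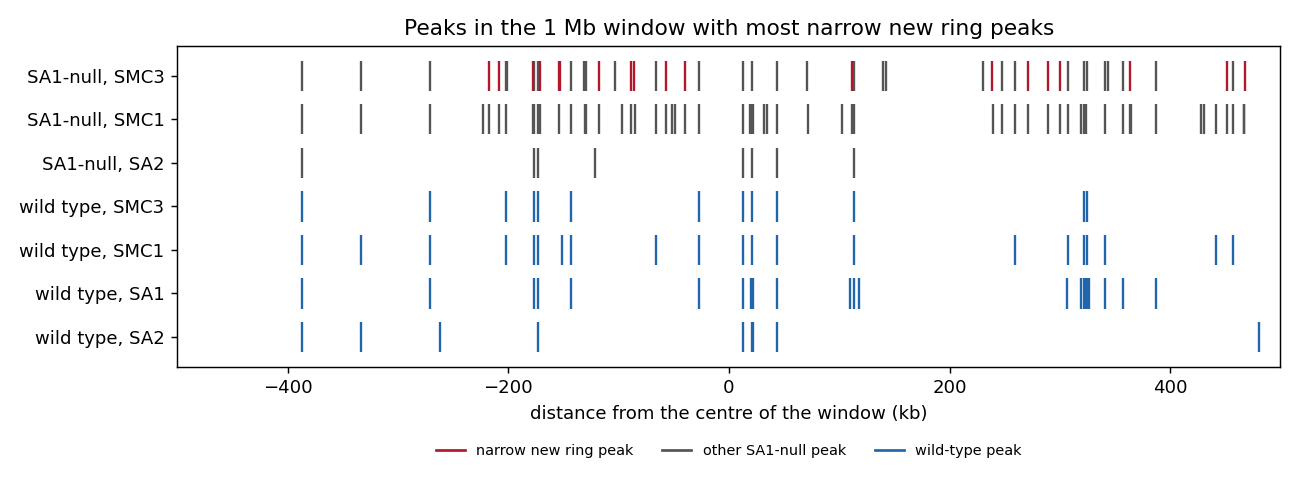
Peaks in the 1 Mb window of chromosome 7 with most narrow new ring peaks, by distance from the window's centre (kb); each tick is 1 peak and rows are lists. The 19 narrow new ring peaks (red, in the row of SMC3 of SA1-null cells) stand among the 50 SMC3 and 58 SMC1 peaks of SA1-null cells, between 13 SMC3 and 21 SMC1 peaks of wild-type cells.

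All chromosomes in the lists carried narrow new ring peaks, and chromosome X fewest. On the 19 autosomes they made up 18.1% ± 1.34 (SD over 19 autosomes) of the SMC3 peaks of SA1-null cells, from 16.1 to 20.2%. On chromosome X they made up 77 of 703 (11.0%, interval 8.74 to 13.5%), below every autosome. Broad new ring peaks were also a smaller share of the SMC3 peaks on X, 0.142% against 1.56% ± 0.368 (SD) on autosomes. So small a share of 703 peaks stands for very few. Narrow ring peaks with a wild-type peak were a larger share on X, 73.4% against 64.1% ± 2.13. Narrow new SMC3 peaks without SMC1 were 9.53% on X, against 8.32% ± 0.616. No counting intervals were computed for these 3 sets. Per length, X held 0.475 narrow new ring peaks per Mb, against 2.59 ± 0.332 on autosomes. SMC3 peaks of SA1-null cells of any kind were also fewest on X, 703 against 1003 on chromosome 19, the autosome with fewest. A low number on X is thus shared by the whole list, whose density per Mb was not computed. Embryo sex is not in the labels for either genotype, and its part in the values on X was not tested.

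**Figure D5:**
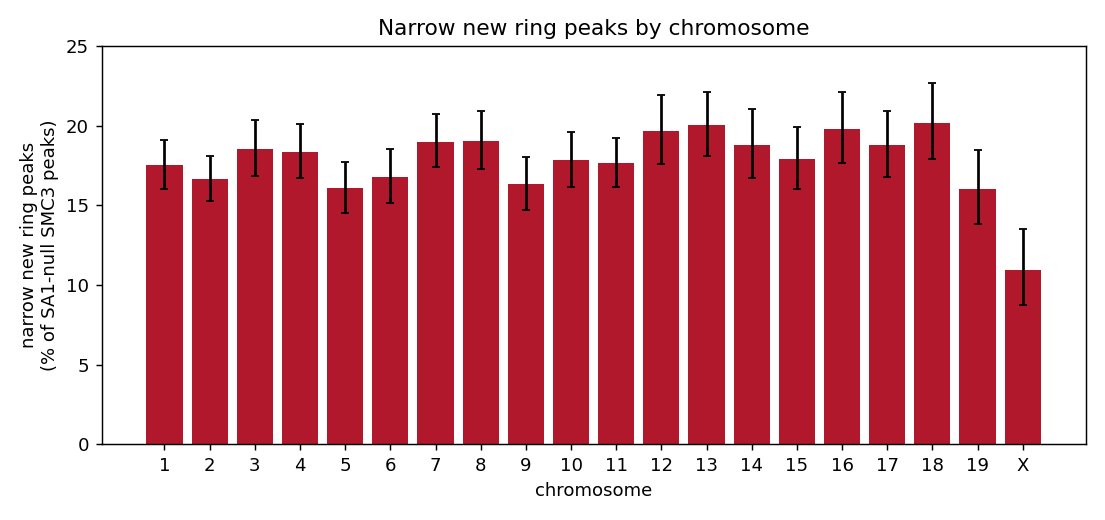
Narrow new ring peaks as a percentage of all SMC3 peaks of SA1-null cells on each chromosome, with 95% exact Clopper-Pearson intervals. The autosomes lie between 16.1 and 20.2%, and chromosome X at 11.0%.

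With the genotypes exchanged, the same rule found few positions. Narrow SMC3 peaks with SMC1 and no peak of the other genotype numbered 6220 in SA1-null cells, 19.1% (interval 18.7 to 19.6%) of 32490 narrow SMC3 peaks, against 38 in wild-type cells, 0.246% (interval 0.174 to 0.338%) of 15443. Of all wild-type SMC3 peaks these were 0.244%. Their median width was 608 bp in SA1-null cells and 462.5 bp in wild-type cells. The lists of SMC1 and SMC3 are longer in SA1-null cells, which tends to make the first number larger and the second smaller. How much of the difference goes with list length was not tested.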

How the data were processed

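The authors deposited 10 interval lists of chromosome, start and end, with no score, fold enrichment or p-value. Per the submitters' processing notes, coordinates are mm9 and the software included CASAVA 1.7; aligner and caller: not given in the sources used here. Names of the deposited lists hold a false discovery rate (10, taken as percent), no minimum fold, the input used, and 2 replicates together for SMC1 of SA1-null cells. Per the labels' protocols, gel-cut fragments of 100 to 200 bp were sequenced (Genome Analyzer IIx). Depth per sample is not in the lists. Starts were read as 0-based.

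Overlaps, distances and shares were computed with Python 3.11.15, numpy 2.4.6 and scipy 1.17.1, tested on simulated data, and the 6220 members and the 6 with SA2 equalled those of bedtools 2.31.1. Named positions are the first 5 by SMC1 partner width, SA2 width, distance from wild-type peaks in either direction, and 1 Mb window count; the position in an input list was named after its value was seen. The members and quantities were chosen with earlier results of these data known. No mm9 genome or gene annotation was used, and sequences and genes were not analysed here. Alternatives changed the overlap, the width limit, the distance from wild-type peaks, the merging of neighbours, the background intervals, chromosome X and the wild-type lists used.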

Additional observations from a re-analysis of the deposited data

How the results depend on the processing

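No library could be left out and no paired analysis was possible because each group has 1 list, and the SMC1 list of SA1-null cells takes 2 replicates together. Depth and peak height are unknown, so weak and strong peaks could not be separated. Of 66 values recomputed under alternatives set with the design, 42 stayed within the interval of the reported value, or within 1.5 times for numbers of peaks, and all 8 did after removal of positions whose SMC1 partner overlaps a wild-type interval, a choice made after seeing the data. The alternatives below change the set by their construction.

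A width limit of 500 bp left 1389 positions, of which 0.216% had an SA2 peak of SA1-null cells and 0 lay in a background list; the SMC1 partner was 450 bp wide, the centre distance 53.5 bp, the distance to a wild-type peak 12643 bp, with 45% of positions within 10000 bp of one and 3.46% within 10000 bp of another member. With a limit of 750 bp the partner was 518 bp wide, the centre distance 54 bp and the share near another member 14.4%. Leaving out positions within 1000 bp of a wild-type peak gave a distance of 15368.5 bp, 37.5% within 10000 bp of a wild-type peak and 17.4% near another member, and within 5000 bp it gave 21664 bp, 20.4% and 16.3%. Merging intervals closer than 1000 bp gave a partner of 554 bp, a centre distance of 60.5 bp, a distance of 15236 bp, 38.0% within 10000 bp and 13.7% near another member. Removing positions in background lists left 0% there. With the wild-type SMC1 and SMC3 lists alone used for exclusion, 8547 positions were found and the SA2 share was 1.91%, since positions with wild-type SA1 or SA2 peaks then enter.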
